A study of Mus musculus with 36 samples.

Results

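The genes described here write, maintain, remove or guard DNA methylation: the methyltransferase genes Dnmt1, Dnmt3a and Dnmt3b, the cofactor genes Dnmt3l and Uhrf1, the dioxygenase genes Tet1, Tet2 and Tet3, and Morc1. They were chosen by gene symbol, with earlier results of these data known, and make up 9 of the 19938 genes with a probe set of their own. All 9 were measured. Expression was profiled on microarrays in sorted germ cells and sorted supporting cells of fetal mouse gonads, XY or XX, at 3 stages: 11.5 days post coitum (dpc), 12.5 dpc and 13.5 dpc. Supporting cells give rise to Sertoli cells if the gonad forms a testis, and to granulosa cells if it forms an ovary. Each of the 12 groups of cell type, karyotype and stage held 3 arrays, of which 35 arrays entered in all. Germ cells of both karyotypes and all stages carried an Oct4 reporter, in progeny of C57BL/6NJ on a mixed background. XY supporting cells carried the Sry-EGFP transgene, in progeny of CD-1, at 11.5 dpc, and the Sox9-cre/ERT2 transgene, in progeny of C57BL/6, at 12.5 and 13.5 dpc. XX supporting cells carried Sry-EGFP, in progeny of CD-1, at every stage. For supporting cells, karyotype at 12.5 and 13.5 dpc and stage within XY therefore cannot be told apart from the line and strain, and neither can germ against supporting cells. The gonads of a sex were pooled before sorting. Nothing in the labels states whether arrays within a group are from separate pools of gonads, so each p-value reflects sample-to-sample spread that may be technical only.

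DNA methylation is copied after replication by DNMT1, which UHRF1 brings to newly made, half-methylated sites. DNMT3A and DNMT3B set new methylation, in germ cells with the catalytically inactive partner DNMT3L. TET enzymes oxidise methylcytosine, a step towards its loss. Mouse germ cells lose most of their methylation around the time they reach the gonad, and XY germ cells later regain it before birth while XX germ cells regain it after birth. MORC1 is required to silence transposons in the male germ line of the mouse.

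Values are log2 expression, so a difference of 1 is a doubling of signal. Differences carry the moderated standard error (SE), and a gene counts as changed at an adjusted p under 0.05 over all 19938 genes of a comparison. Array medians lay between 6.54 and 7.01. The array labelled XX germ cells 12.5 dpc, replicate 3, was left out, which leaves 2 arrays in that group. It had Ddx4 and Pou5f1, which mark germ cells, at 5.04 and 5.07, against 9.51 or more for Pou5f1 and 10.46 or more for Ddx4 in the other germ cell arrays. Where it was included as a check, differences moved only if XX germ cells of 12.5 dpc entered the comparison. In other comparisons only the error, which is pooled over groups, and the adjusted p moved. In the 35 arrays kept, the median of 9 germ cell markers was 8.68 to 10.66 in germ cells and 5.51 to 6.56 in supporting cells. The median of 6 supporting cell markers was 6.46 to 7.31 in germ cells and 9.17 to 10.84 in supporting cells. The median of 6 interstitial or stromal markers was 6.02 to 7.45 in germ cells and 6.42 to 7.47 in supporting cells. The table rows of each array fall into 2 or 3 interleaved sets, each on a scale of its own, with set medians up to 0.751 apart. The deposited values are given throughout, and values with these row sets aligned stand beside them where the call differs.

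Cell type divided the 9 genes most often. Averaged over stages and karyotypes, 3 were higher in germ than in supporting cells, as were 29.1% of all genes, and 3 were lower, as were 18.1%, so that 6 changed against 47.2% of all genes. At 11.5 dpc 6 of the 9 changed, against 35.1% of all genes. At 13.5 dpc 7 changed between XX germ and XX supporting cells, against 26.4% of all genes, and 7 between XY germ and XY supporting cells, against 25.1%. The median difference of the 9 genes over all stages was 0.07, the same as the 0.07 of all genes. In these sorted populations a smaller share of expressing cells and less RNA per cell cannot be told apart.

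Karyotype and stage changed fewer of them. Between XY and XX germ cells, 0 of 9 changed at 11.5 dpc (0.0251% of all genes changed, and 1 member had an unadjusted p under 0.05 in limma). At 12.5 dpc 1 changed (1.8% of all genes changed), and at 13.5 dpc 3 changed (9.21%). Between XY and XX supporting cells, 1 changed at 11.5 dpc (3.32%), 4 at 12.5 dpc (13.4%) and 2 at 13.5 dpc (12.2%). Between 13.5 and 11.5 dpc, 2 changed in XX germ cells (15.3%) and 1 in XY germ cells (7.09%). In supporting cells 0 of 9 changed over these days in limma, in XX (4.1%, and 1 member had an unadjusted p under 0.05) or in XY (8.87%, and 2 members had one). With row sets aligned, 1 member changed in XX supporting cells, when 10.6% of all genes did (Dnmt3a, 0.43, adjusted p = 0.0437). On the same scale 1 changed in XY supporting cells, when 21.9% did (Dnmt1, 0.50, adjusted p = 0.000684).

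**Figure D1:**
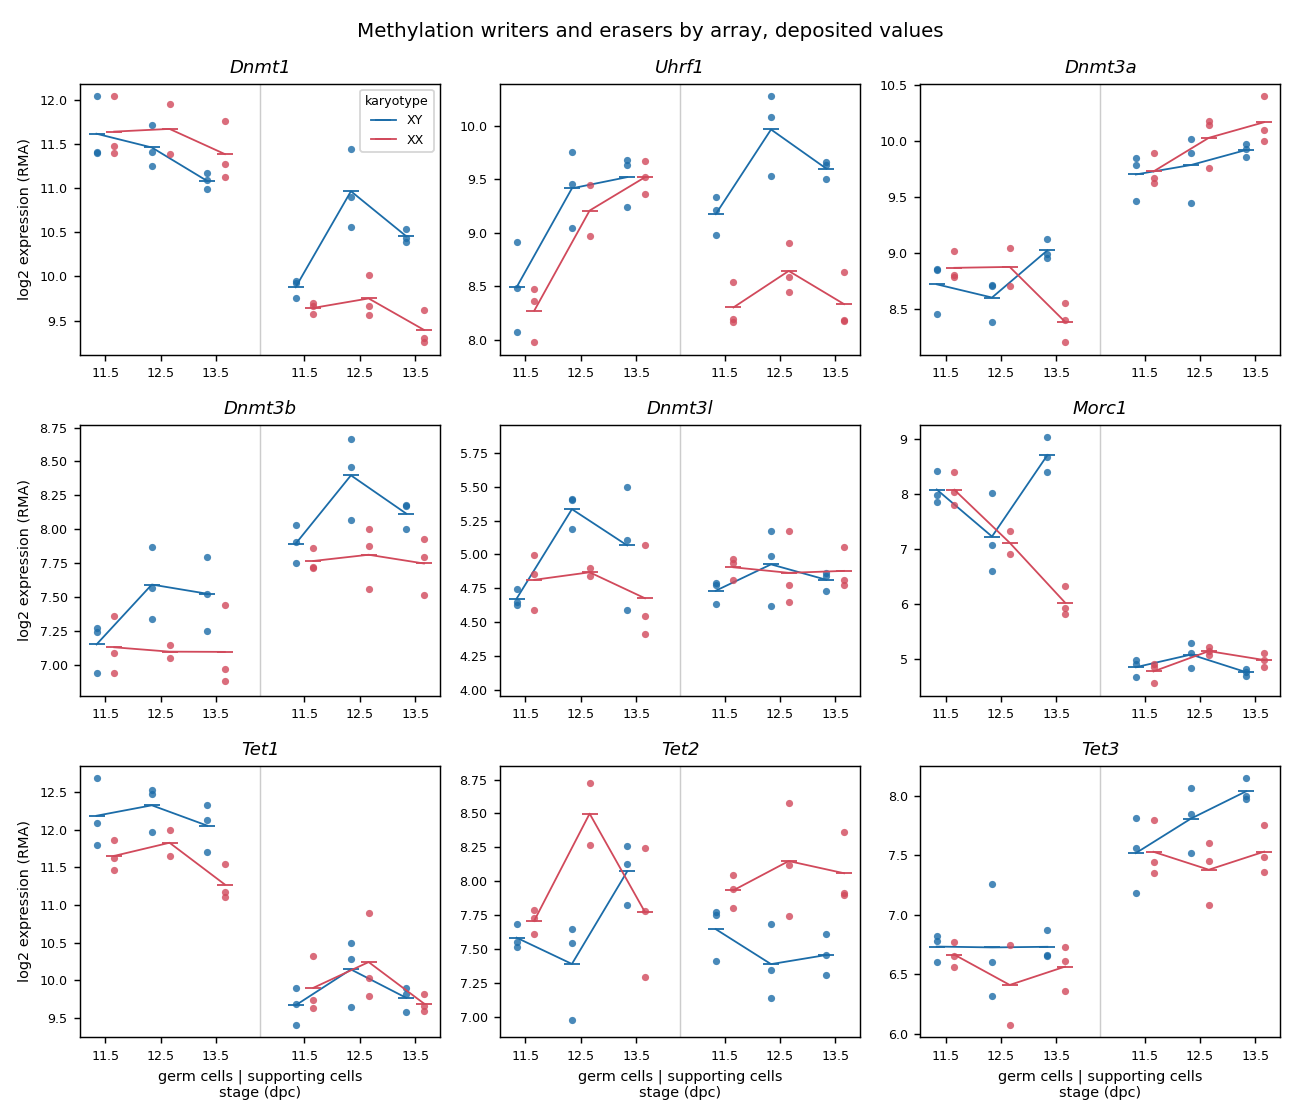
Log2 expression of the 9 genes in each of the 35 arrays, by stage in dpc, with germ cells in the left and supporting cells in the right part of each panel. Points are arrays, bars joined by lines are group means, XY is blue and XX is red. Tet1 and Morc1 lie higher in every germ cell array than in any supporting cell array, Dnmt3a lies lower in every one, and Morc1 separates XY from XX germ cells at 13.5 dpc.

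Dnmt1, the maintenance methyltransferase gene, was 2.75-fold higher in germ than in supporting cells (1.46, SE 0.09, adjusted p = 3.47e-20). It ranged from 10.99 to 12.04 in the 17 germ cell arrays, with a median of 11.4, and from 9.26 to 11.44 in the 18 supporting cell arrays, with a median of 9.84. The ranges overlapped through 1 array, XY supporting cells 12.5 dpc replicate 1 at 11.44, which is at 10.74 with row sets aligned, below every germ cell array on that scale. Uhrf1, whose protein recruits DNMT1 to half-methylated DNA, did not pass the test between the cell types overall (0.07, SE 0.09, adjusted p = 0.577).

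Both genes were higher in XY than in XX supporting cells, and their promoter windows are shown because they moved together there. The windows span 250 bases before to 50 bases after an annotated start (RefSeq, build GRCm38.p6). Of 3 Dnmt1 windows and 2 Uhrf1 windows, the 1 printed for each is the one that holds letters of an E2F-type motif, in capitals. The letters searched were TTTCCCGC, TTTGGCGC, TTTCGCGC and TTTGCCGC on both strands, and the printed matches do not overlap.
Dnmt1, chr9:20952574-20952873, minus strand: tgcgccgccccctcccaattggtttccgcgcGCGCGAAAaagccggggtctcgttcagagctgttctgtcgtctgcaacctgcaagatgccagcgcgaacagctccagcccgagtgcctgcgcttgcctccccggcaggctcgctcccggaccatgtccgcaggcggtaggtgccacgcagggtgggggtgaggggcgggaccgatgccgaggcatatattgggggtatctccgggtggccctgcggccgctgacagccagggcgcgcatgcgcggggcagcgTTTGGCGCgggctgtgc
Uhrf1, chr17:56304063-56304362, plus strand: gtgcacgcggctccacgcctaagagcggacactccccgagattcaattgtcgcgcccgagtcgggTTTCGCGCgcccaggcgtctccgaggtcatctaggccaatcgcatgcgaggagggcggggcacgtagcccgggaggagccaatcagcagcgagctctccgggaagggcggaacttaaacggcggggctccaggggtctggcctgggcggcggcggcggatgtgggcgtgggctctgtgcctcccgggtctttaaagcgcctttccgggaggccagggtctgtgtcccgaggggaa
In Dnmt1 the matches begin at bases -219 and 34 from the start, and in Uhrf1 at base -185. Such letters occur in 2.26% of the 32851 windows in the table, and in 0 of the other windows of the 8 members found in the table. The printed windows were picked because they hold these letters, so that share is no test of them. The letters CCAAT, searched likewise, occur in 37.4% of all windows. Both printed windows hold them, with 3 matches in Dnmt1 and 2 in Uhrf1, as do another window of each gene and that of Tet3. The letters ATGCAAAT occur in 1.74% of all windows and in 0 windows of the members. Each of the printed windows holds 33 CpG dinucleotides, more than 91.4% of all windows, whose median is 7. The E2F-type letters searched each hold a CpG themselves, so all windows are not a like background. A match describes the letters only and is not evidence of binding.

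In supporting cells at 12.5 dpc, Dnmt1 was at 11.44, 10.55 and 10.89 in XY arrays, against 10.02, 9.67 and 9.57 in XX arrays. Every XY array lay above every XX array, and the difference was 1.21 (SE 0.21, adjusted p = 1.96e-05). Dnmt1 at 13.5 dpc was at 10.43, 10.39 and 10.54 in XY arrays, against 9.62, 9.31 and 9.26 in XX arrays. The groups again did not overlap, with a 2.08-fold difference (1.06, SE 0.21, adjusted p = 0.000192). At 11.5 dpc its 3 XY values, 9.93, 9.95 and 9.75, lay just above the XX values of 9.57, 9.67 and 9.70. That difference of 0.23 (SE 0.21) did not pass the test, whereas with row sets aligned it was 0.36 (adjusted p = 0.0254).

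Uhrf1 already differed at 11.5 dpc, when both karyotypes carried Sry-EGFP in progeny of CD-1. It was at 9.33, 9.21 and 8.97 in XY supporting cells, against 8.20, 8.16 and 8.54 in XX supporting cells. The groups did not overlap, and the difference was 1.83-fold (0.87, SE 0.22, adjusted p = 0.00925). Without XX replicate 1, XX replicate 2 or XY replicate 1 the adjusted p was 0.0588, 0.0722 and 0.0596. Uhrf1 at 12.5 dpc was at 10.08, 9.53 and 10.28 in XY arrays, against 8.58, 8.90 and 8.44 in XX arrays. At 13.5 dpc it was at 9.50, 9.66 and 9.63 in XY arrays, against 8.63, 8.19 and 8.17 in XX arrays. XY arrays were higher without overlap at both stages, by 1.32 (SE 0.22, adjusted p = 4.6e-06) and by 1.27 (SE 0.22, adjusted p = 1.13e-05).

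Genes of DNA replication differed in the same arrays. Of 18 replication and S phase genes, 2 were higher in XY than in XX supporting cells at 11.5 dpc, 10 at 12.5 dpc and 10 at 13.5 dpc, with 0 lower at any stage, while 3.32%, 13.4% and 12.2% of all genes changed. Their median differences were 0.18, 0.77 and 0.70, against -0.06, 0.04 and -0.02 for all genes. Among them Rrm2, a subunit gene of ribonucleotide reductase, was higher by 2.07 at 12.5 dpc (SE 0.24, adjusted p = 7.55e-10), and Mcm3, of the replicative helicase, by 1.35 (SE 0.23, adjusted p = 9.11e-06). The median of the list was 8.81 to 9.09 in the XY arrays of 12.5 dpc and 7.80 to 8.23 in the XX arrays. All 6 Sertoli cell markers were also higher in XY at 12.5 and 13.5 dpc and 3 of 6 at 11.5 dpc, with a list median of 8.05 to 8.37 in XY and 6.92 to 6.95 in XX arrays at 11.5 dpc, and 9.16 to 9.52 in XY and 6.72 to 6.82 in XX arrays at 13.5 dpc. The part of cell division, cell identity or line in the Dnmt1 and Uhrf1 differences was not tested.

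**Figure D2:**
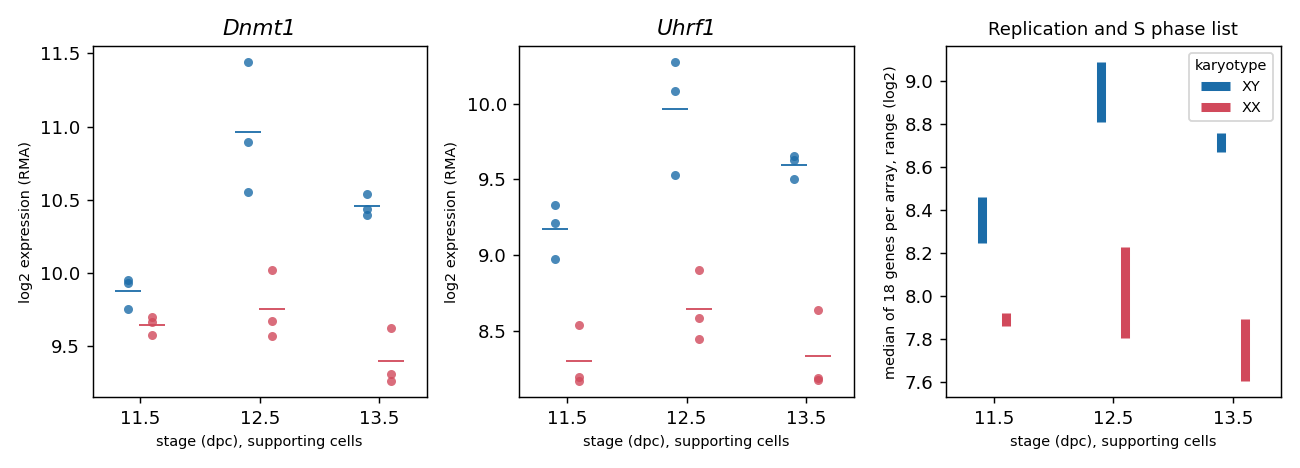
Dnmt1 and Uhrf1 (log2 expression, points are arrays and bars are means) and the range over arrays of the median of 18 replication and S phase genes (log2), in XY (blue) and XX (red) supporting cells by stage in dpc. XY lies above XX without overlap at every stage in all 3 panels, and for Dnmt1 the distance between the means is smallest at 11.5 dpc (0.23).

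In germ cells the karyotypes did not separate Dnmt1 or Uhrf1, while stage separated Uhrf1. Uhrf1 was at 8.48, 7.97 and 8.36 in XX germ cells at 11.5 dpc, at 9.44 and 8.97 at 12.5 dpc, and at 9.67, 9.36 and 9.52 at 13.5 dpc. In XY germ cells it was at 8.48, 8.07 and 8.91 at 11.5 dpc, at 9.45, 9.75 and 9.04 at 12.5 dpc, and at 9.24, 9.63 and 9.68 at 13.5 dpc. In both karyotypes every later array lay above every array of 11.5 dpc. Between 13.5 and 11.5 dpc it rose by 1.25 in XX germ cells (SE 0.22, adjusted p = 2.25e-05) and by 1.03 in XY germ cells (SE 0.22, adjusted p = 0.000757). Between 12.5 and 11.5 dpc it rose by 0.93 in XX germ cells, where 1.15% of all genes changed and 12.5 dpc has 2 arrays (SE 0.24, adjusted p = 0.0351), and by 0.92 in XY germ cells, where 1.31% changed (SE 0.22, adjusted p = 0.0117). These 2 calls were lost when single arrays were left out: XX 11.5 dpc replicate 2 (adjusted p = 0.187) or 3 (0.0685) and XX 12.5 dpc replicate 1 (0.281) or 2 (0.0716), and XY 11.5 dpc replicate 2 (0.136) and XY 12.5 dpc replicate 1 (0.0546) or 2 (0.183). The XX call was also lost in the fit on germ cell arrays alone (0.93, adjusted p = 0.0507), which gave every member the same SE (0.272). With the left-out array included, which lacks Ddx4 and Pou5f1 at germ cell levels, the XX value was 1.21 (adjusted p = 0.00353). The XY value was then 0.92 (adjusted p = 0.0698). Between 13.5 and 12.5 dpc in XX, Uhrf1 differed by 0.31 (SE 0.24, adjusted p = 0.458), or by 0.80 with row sets aligned (adjusted p = 0.00142).

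Dnmt1 stayed within 10.99 to 12.04 in all germ cell arrays and differed by -0.53 between 13.5 and 11.5 dpc in XY (SE 0.21, adjusted p = 0.15) and by -0.25 in XX (SE 0.21, adjusted p = 0.405). Over the same days 9 of 18 replication and S phase genes fell in XY germ cells, among them Ccne1, a cyclin gene, by -1.84 (SE 0.24, adjusted p = 9.91e-08), and 0 rose, while 7.09% of all genes changed. In XX germ cells 5 fell and 1 rose, while 15.3% of all genes changed. The rise of Uhrf1 in germ cells thus stood beside a list median of -0.69 in XY and -0.26 in XX germ cells, against -0.03 and -0.14 for all genes.

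At 13.5 dpc the XY minus XX difference itself was tested between the cell types, where 11.2% of all genes passed. For Dnmt1 it was -0.30 (SE 0.21) in germ cells and 1.06 (SE 0.21) in supporting cells, a gap of -1.36 (SE 0.30, adjusted p = 0.000902). For Uhrf1 it was 0.00 (SE 0.22) in germ cells and 1.27 (SE 0.22) in supporting cells, a gap of -1.26 (SE 0.31, adjusted p = 0.00251). Both gaps passed in each of the 12 fits that left out 1 array of 13.5 dpc. At 13.5 dpc Dnmt1 was higher in germ than in supporting cells, by 1.99 in XX (SE 0.21, adjusted p = 6.8e-11) and 0.62 in XY (SE 0.21, adjusted p = 0.0239). The XY value passed no longer without XY germ replicate 2 (adjusted p = 0.081) or 3 (0.0607) or XY supporting replicate 1 (0.0666) or 2 (0.0783). Uhrf1 was higher in XX germ than in XX supporting cells at 13.5 dpc (1.19, SE 0.22, adjusted p = 1.52e-05), and its difference between XY germ and XY supporting cells was -0.08 (SE 0.22). At 11.5 dpc Uhrf1 differed by -0.36 between germ and supporting cells (SE 0.15, adjusted p = 0.0661). It passed without XX germ replicate 1 (adjusted p = 0.0467), XY germ replicate 3 (0.0164) or XY supporting replicate 3 (0.0464), and with row sets aligned (-0.42, adjusted p = 0.000978).

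Dnmt3a and Dnmt3b, the genes of the methyltransferases that set new methylation, were both lower in germ cells. Dnmt3a ranged from 8.21 to 9.13 in germ cell arrays (median 8.79), against 9.45 to 10.40 in supporting cell arrays (median 9.89). The ranges did not overlap, and the difference was -1.14 (SE 0.08, adjusted p = 2.51e-18), a fold of 0.454. Dnmt3b ranged from 6.88 to 7.87 in germ cell arrays (median 7.25), against 7.52 to 8.66 in supporting cell arrays (median 7.92). Its ranges overlapped, with a difference of -0.69 (SE 0.08, adjusted p = 2.01e-10).

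The distance in Dnmt3a was -1.78 between XX germ and XX supporting cells at 13.5 dpc (SE 0.19, adjusted p = 3.31e-11) and -0.89 between XY germ and XY supporting cells (SE 0.19, adjusted p = 0.000143). The XY minus XX difference of 13.5 dpc was larger in germ than in supporting cells by 0.88 (SE 0.26, adjusted p = 0.0187). Without XX germ replicate 3, XY germ replicate 3 or XX supporting replicate 1 that adjusted p was 0.0662, 0.0503 and 0.0768, and with the left-out array included it was 0.0862. In germ cells of 13.5 dpc Dnmt3a was at 8.95, 8.99 and 9.13 in XY arrays, against 8.56, 8.40 and 8.21 in XX arrays. The groups did not overlap in the deposited values, with a difference of 0.63 (SE 0.19, adjusted p = 0.0195). With row sets aligned the XY arrays were at 9.29, 8.63 and 9.03, against 8.46, 8.75 and 8.58 in XX arrays, so the groups overlapped and the difference of 0.39 did not pass (adjusted p = 0.0529). Without XX replicate 2, XX replicate 3 or XY replicate 3 the adjusted p was 0.054, 0.138 and 0.0943. With the left-out array included it was 0.0922, at the same difference of 0.63. In the fit on germ cell arrays alone, which gave every member the same SE (0.244), it was 0.0932. Between 13.5 and 12.5 dpc in XY germ cells Dnmt3a differed by 0.42 (SE 0.19, adjusted p = 0.351), or by 0.55 with row sets aligned (adjusted p = 0.0132).

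Dnmt3b was at 8.46, 8.07 and 8.66 in XY supporting cells at 12.5 dpc, against 7.88, 8.0 and 7.56 in XX supporting cells. The groups did not overlap, and the difference was 0.59 (SE 0.20, adjusted p = 0.0343). It did not pass without XX replicate 1 (adjusted p = 0.0561) or 3 (0.191) or without XY replicate 1 (0.106) or 3 (0.214), nor with the left-out array included (0.0529), with quantile normalisation (0.0509) or with trend and robust settings (0.0596), but with row sets aligned it was 0.69 (adjusted p = 1.43e-05). At 13.5 dpc the difference was 0.37 (SE 0.20, adjusted p = 0.294), or 0.44 with row sets aligned (adjusted p = 0.00295). In XY germ cells Dnmt3b differed by 0.37 between 13.5 and 11.5 dpc (SE 0.20, adjusted p = 0.359), or by 0.34 with row sets aligned (adjusted p = 0.0327). Between germ and supporting cells at 13.5 dpc it was lower in XX by -0.65 (SE 0.20, adjusted p = 0.00797) and in XY by -0.59 (SE 0.20, adjusted p = 0.0183). Single arrays ended these calls as well: XX germ replicate 3 (adjusted p = 0.0644) or XX supporting replicate 1 (0.0568), and XY germ replicate 1 (0.0971), XY supporting replicate 2 (0.0675) or 3 (0.0637).

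Dnmt3l, the gene of the germ line cofactor of DNMT3A and DNMT3B, stayed between 4.42 and 5.50 in germ cells and between 4.62 and 5.17 in supporting cells, above only 4.41 to 19.07% of genes, so its values too may be background. It passed the test in 0 of the 20 comparisons of the main limma fit on the deposited values. Its values in XY germ cells were 4.65, 4.63 and 4.74 at 11.5 dpc, 5.18, 5.41 and 5.41 at 12.5 dpc, and 4.59, 5.50 and 5.11 at 13.5 dpc. The arrays of 12.5 dpc lay above those of 11.5 dpc, by 0.66 (SE 0.20, adjusted p = 0.0945). The same difference was 0.18 with row sets aligned (adjusted p = 0.317). It passed in limma when arrays were centred on their medians (adjusted p = 0.0252), with quantile normalisation (0.0184) and with trend and robust settings (0.0482). Between XY and XX germ cells at 13.5 dpc Dnmt3l differed by 0.39 (SE 0.20, adjusted p = 0.274), and by 0.63 without XY replicate 1 (adjusted p = 0.0324).

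Morc1 separated germ from supporting cells, and XY from XX germ cells at 13.5 dpc. It was at 5.83 to 9.03 in germ cell arrays and 4.56 to 5.29 in supporting cell arrays, a difference of 2.60 (SE 0.09, adjusted p = 1.94e-29). The supporting cell values lay above those of only 5.16 to 17.1% of genes. The deposited table gives no background level, so they may be background, and differences from them are read as lower bounds. In XY germ cells it was at 8.40, 7.97 and 7.85 at 11.5 dpc, at 7.07, 6.59 and 8.01 at 12.5 dpc, and at 8.67, 8.39 and 9.03 at 13.5 dpc. In XX germ cells it was at 8.39, 7.79 and 8.02 at 11.5 dpc, at 7.31 and 6.90 at 12.5 dpc, and at 6.32, 5.93 and 5.83 at 13.5 dpc. The karyotypes overlapped at 11.5 and 12.5 dpc, and at 13.5 dpc every XY array lay at least 2 units above every XX array.

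At 13.5 dpc Morc1 was 6.38-fold higher in XY than in XX germ cells (2.67, SE 0.23, adjusted p = 6.58e-13). At 11.5 dpc the difference was 0.01 (SE 0.23) and at 12.5 dpc 0.11 (SE 0.25, adjusted p = 0.87). Its XY minus XX difference at 13.5 dpc exceeded that at 11.5 dpc by 2.67 (SE 0.32, adjusted p = 8.07e-08), in a test that 3.24% of all genes passed. In supporting cells the XY minus XX difference at 13.5 dpc was -0.22 (SE 0.23), and the gap to germ cells was 2.90 (SE 0.32, adjusted p = 1.01e-09). At the low level of Morc1 in supporting cells a karyotype difference could hardly show there, so this gap rests on the germ cell side. Germ cells exceeded supporting cells at 13.5 dpc by 3.94 in XY (SE 0.23, adjusted p = 4.73e-20) and by 1.04 in XX (SE 0.23, adjusted p = 0.000255), and by 3.26 at 11.5 dpc (SE 0.16, adjusted p = 2.92e-23).

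In XX germ cells Morc1 fell by 2.05 between 13.5 and 11.5 dpc (SE 0.23, adjusted p = 1.5e-09). The difference was -0.96 between 12.5 and 11.5 dpc (SE 0.25, adjusted p = 0.0441) and -1.08 between 13.5 and 12.5 dpc (SE 0.25, adjusted p = 0.0043), when 8.38% of all genes changed. In XY germ cells it was lower at 12.5 than at 11.5 dpc (-0.85, SE 0.23, adjusted p = 0.0394) and then higher at 13.5 than at 12.5 dpc (1.47, SE 0.23, adjusted p = 2.25e-05), when 2.38% of all genes changed. Between 13.5 and 11.5 dpc the XY difference was 0.62 (SE 0.23, adjusted p = 0.0963), or 0.70 with row sets aligned (adjusted p = 0.00164). Of these 4 steps, the XY step between 13.5 and 12.5 dpc passed with each single array left out, and the others did not. The first XX step was lost without XX 11.5 dpc replicate 1 (adjusted p = 0.181) or 3 (0.0942) or XX 12.5 dpc replicate 1 (0.0539) or 2 (0.473), and the second without XX 12.5 dpc replicate 1 (0.0885). The first XY step was lost without XY 11.5 dpc replicate 1 (0.296) or 2 (0.065) or XY 12.5 dpc replicate 1 (0.198) or 2 (0.553), where replicate 2 is the array at 6.59. With the left-out array included, which lacks Ddx4 and Pou5f1 at germ cell levels, the XX steps were -1.54 (adjusted p = 0.00391) and -0.51 (adjusted p = 0.249). The steps in XY germ cells were then -0.85 (adjusted p = 0.377) and 1.47 (adjusted p = 0.0073).

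**Figure D3:**
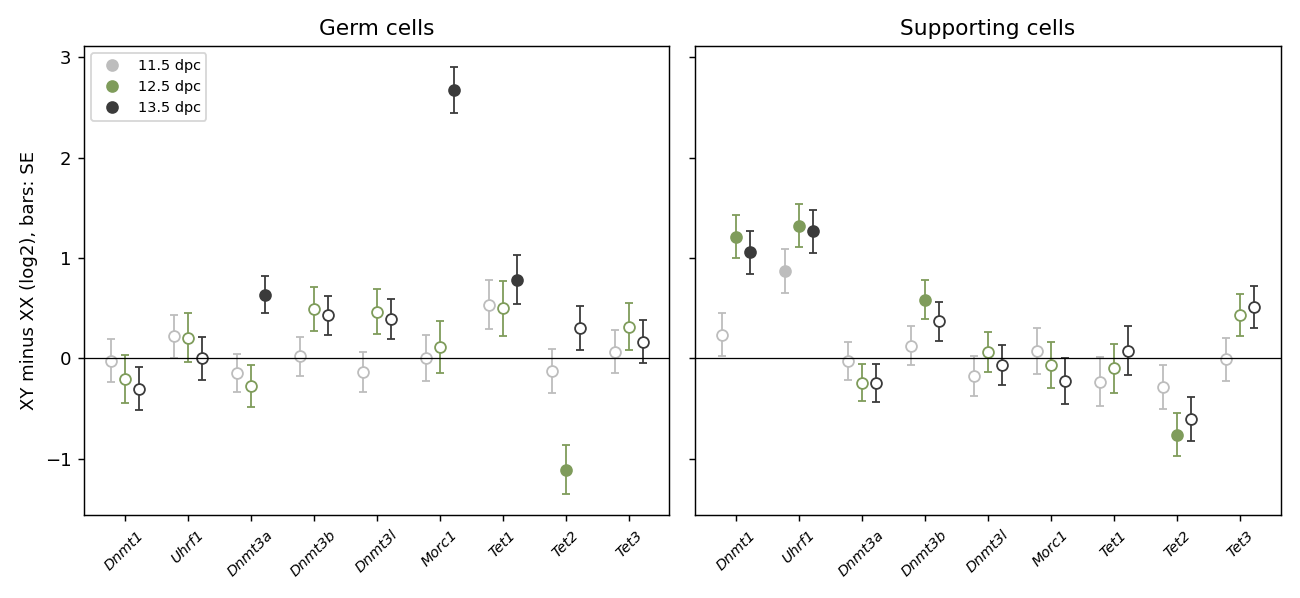
XY minus XX difference (log2) of each gene at each of the 3 stages in germ cells (left) and supporting cells (right), with bars for the SE. Filled points passed at an adjusted p under 0.05. Morc1 in germ cells at 13.5 dpc (2.67) lies farthest from 0, and Dnmt1 and Uhrf1 lie above 1 at 12.5 and 13.5 dpc in supporting cells only.

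The 3 TET genes differed in where they were high. Tet1 was 3.97-fold higher in germ cells (1.99, SE 0.10, adjusted p = 1.95e-23), at 11.10 to 12.69 in germ cell arrays (median 11.87), against 9.41 to 10.90 in supporting cell arrays (median 9.81). Tet3 was lower in germ cells (-1.0, SE 0.09, adjusted p = 2.44e-14), at 6.08 to 7.26 in germ cell arrays (median 6.66), against 7.08 to 8.15 in supporting cell arrays (median 7.58). Tet2 did not pass the test between the cell types overall (0.07, SE 0.09, adjusted p = 0.592), at 6.97 to 8.73 in germ cells and 7.14 to 8.58 in supporting cells. The ranges did not overlap for Tet1, and for Tet3 they overlapped through 1 array of XY germ cells at 12.5 dpc (7.26).

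Tet1 in germ cells at 13.5 dpc was at 11.71, 12.34 and 12.13 in XY arrays, against 11.17, 11.54 and 11.10 in XX arrays. All XY arrays lay above all XX arrays, with a 1.72-fold difference (0.78, SE 0.24, adjusted p = 0.0281). The call was lost without XX replicate 1 (adjusted p = 0.0751) or 3 (0.144) or XY replicate 2 (0.183) or 3 (0.101), or with the left-out array included (0.136), and with row sets aligned it was 0.84 (adjusted p = 0.000279). The other 2 probe sets of Tet1 also separated the karyotypes. Probe set 10369688 was at 10.45, 10.79 and 10.63 in XY arrays, against 9.55, 9.95 and 9.16 in XX arrays. Probe set 10369690 was at 10.52, 11.55 and 11.05 in XY arrays, against 10.32, 9.71 and 9.31 in XX arrays. The mean of the 3 probe sets differed by 1.04 (SE 0.21, adjusted p = 0.000564). The gap between this karyotype difference in germ cells and that in supporting cells was 0.71 for the gene's own probe set (SE 0.34, adjusted p = 0.221) and 1.13 for the mean of the 3 (adjusted p = 0.00729).

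For stage in XX germ cells the call on Tet1 depended on the probe sets used, with the same sign throughout. The probe set that stands for the gene differed by -0.38 between 13.5 and 11.5 dpc (SE 0.24, adjusted p = 0.288), whereas the mean of the 3 differed by -0.77 (adjusted p = 0.00858). With row sets aligned the gene's own probe set differed by -0.68 (adjusted p = 0.00204). Between 13.5 and 12.5 dpc in XX the values were -0.56 (SE 0.27, adjusted p = 0.213), -0.94 for the mean of the 3 (adjusted p = 0.00933) and -0.75 with row sets aligned (adjusted p = 0.00679). In XY germ cells the difference between 13.5 and 11.5 dpc was -0.13 (SE 0.24, adjusted p = 0.916), with the mean of the 3 not passing either (adjusted p = 0.991).

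**Figure D4:**
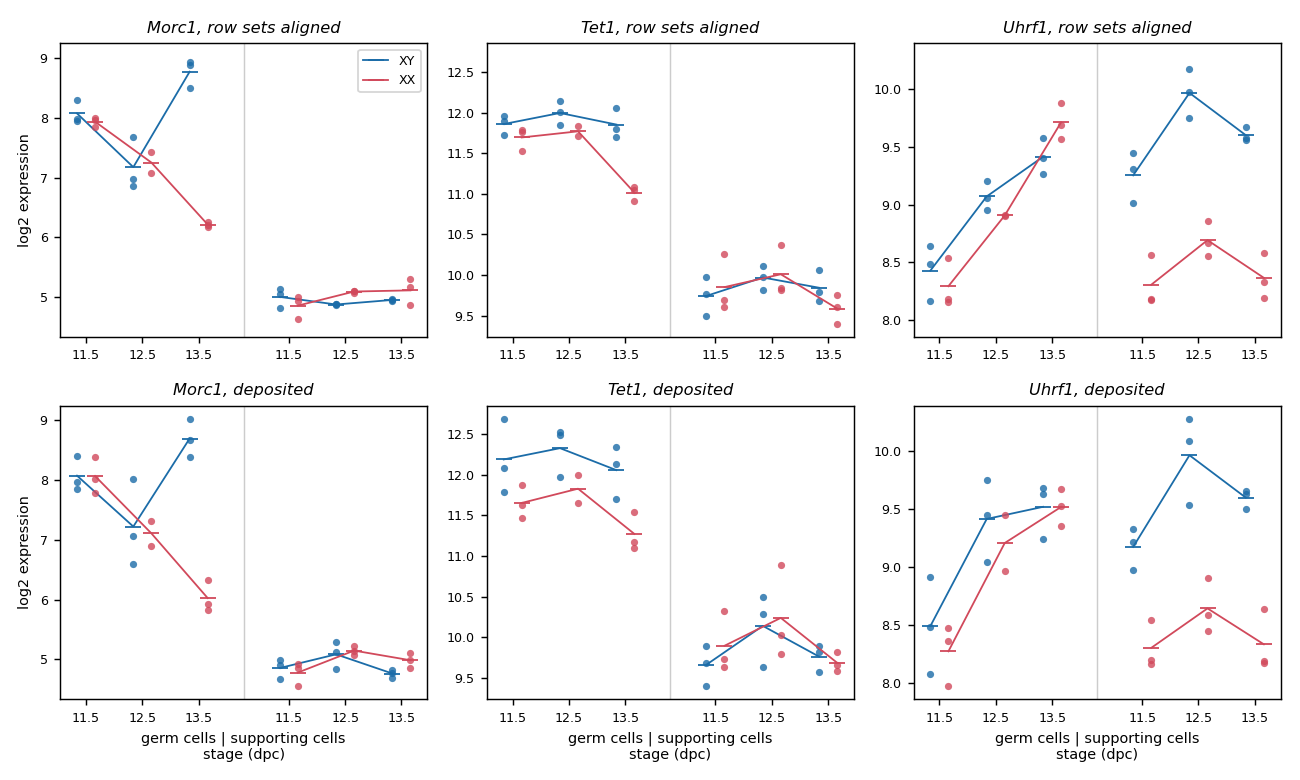
Morc1, Tet1 and Uhrf1 in each array (log2 expression) by stage in dpc, with row sets aligned in the upper panels and as deposited in the lower panels, germ cells in the left and supporting cells in the right part of each panel, XY in blue and XX in red. The pattern of Morc1 is alike on both scales, while Tet1 in XX germ cells at 13.5 dpc lies farther below the other germ cell groups when aligned (10.91 to 11.08) than as deposited (11.10 to 11.54).

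Tet2 was lower in XY than in XX cells at 12.5 dpc in both cell types. In germ cells it was at 7.65, 7.55 and 6.97 in XY arrays, against 8.73 and 8.27 in the 2 XX arrays. The groups did not overlap, with a difference of -1.11 (SE 0.24, adjusted p = 0.00618). The call was lost without XY replicate 3 (adjusted p = 0.0604), or without XX replicate 1, which leaves a lone XX array (-0.88). With the left-out array included the difference was -1.02 (adjusted p = 0.00617). That array lacks Ddx4 and Pou5f1 at germ cell levels, so this value is no further support for a difference in germ cells. In supporting cells Tet2 was at 7.34, 7.14 and 7.68 in XY arrays, against 8.12, 8.58 and 7.74 in XX arrays. XY lay below XX throughout, by -0.76 (SE 0.22, adjusted p = 0.0104), a call lost without XX replicate 2 (0.156) or XY replicate 2 (0.0734).

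At 13.5 dpc Tet2 in supporting cells was at 7.30, 7.61 and 7.45 in XY arrays, against 7.91, 8.36 and 7.90 in XX arrays. The groups did not overlap, yet the difference of -0.60 (SE 0.22) had an adjusted p of 0.0602, which was 0.0039 with row sets aligned. In germ cells of 13.5 dpc the difference was 0.30 (SE 0.22, adjusted p = 0.492), and the gap between the cell types of 0.90 passed (SE 0.31, adjusted p = 0.0453). That call was lost without XX germ replicate 2 (adjusted p = 0.223) or 3 (0.0751), XY germ replicate 2 (0.0859) or 3 (0.123), XX supporting replicate 2 (0.161), or XY supporting replicate 1 (0.12) or 3 (0.0782), with the left-out array included (0.0713) and with trend and robust settings (0.053). Between 13.5 and 12.5 dpc in XY germ cells Tet2 differed by 0.68 (SE 0.22, adjusted p = 0.0891), or by 0.84 with row sets aligned (adjusted p = 0.000748). In XY at 13.5 dpc Tet2 was higher in germ than in supporting cells (0.62, SE 0.22, adjusted p = 0.0284). That call was lost without XY germ replicate 2 (adjusted p = 0.0819) or 3 (0.138) or XY supporting replicate 1 (0.122) or 3 (0.0677).

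Tet3 was lower in germ than in supporting cells at 11.5 dpc (-0.82, SE 0.15, adjusted p = 7.17e-06) and at 13.5 dpc, by -0.97 in XX (SE 0.21, adjusted p = 0.000245) and -1.31 in XY (SE 0.21, adjusted p = 1.65e-06). In supporting cells at 13.5 dpc it was at 8.0, 8.15 and 7.98 in XY arrays, against 7.75, 7.36 and 7.48 in XX arrays. The groups did not overlap, and the difference of 0.51 (SE 0.21) did not pass (adjusted p = 0.124). The mean of its 2 probe sets differed by 0.59 (adjusted p = 0.0224), and with row sets aligned the difference was 0.54 (adjusted p = 0.0317). Among germ cells Tet3 passed in none of the karyotype or stage comparisons.

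The wider pathway was read from lists of textbook members. Of 15 genes of active demethylation and base excision repair, 7 were higher and 2 lower in germ than in supporting cells, against 29.1% and 18.1% of all genes, with a median of 0.17, against 0.07 for all genes. The DNA glycosylase gene Neil3 was higher by 1.30 (SE 0.10, adjusted p = 4.86e-16) and the repair gene Parp1 by 1.20 (SE 0.09, adjusted p = 1.36e-17), while the stress-inducible gene Gadd45g was lower by -1.67 (SE 0.09, adjusted p = 2.55e-22). Between 13.5 and 11.5 dpc, 6 fell and 1 rose in XX germ cells, where 15.3% of all genes changed, and 2 fell in XY germ cells, where 7.09% changed. Apex1, which encodes the endonuclease that cuts abasic sites, was lower by -1.11 in XX (SE 0.21, adjusted p = 9.37e-05). Neil3 was the gene that rose in XX, by 1.40 (SE 0.25, adjusted p = 2.97e-05), and it was lower in XY than in XX germ cells at 13.5 dpc (-1.55, SE 0.25, adjusted p = 7.46e-06).

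Of 19 silencing cofactors, 11 were higher and 4 lower in germ cells, against 29.1% and 18.1% of all genes (median 0.42, against 0.07 for all genes). Dppa3, which protects methylation in the early mouse embryo and also serves as a germ cell marker, was higher by 4.71 (SE 0.10, adjusted p = 1.02e-38). Hells, a chromatin remodelling gene needed for normal methylation, was higher by 2.33 (SE 0.09, adjusted p = 1.13e-28), whereas Zfp57, which guards methylation at imprinted regions, was lower by -2.62 (SE 0.10, adjusted p = 1.17e-28). Of 7 methyl-CpG readers, 3 were higher and 3 lower, against the same shares of all genes, and Mbd2 was lower by -2.17 (SE 0.10, adjusted p = 1.89e-24). All 6 measured genes of methyl donor metabolism were higher in germ cells, against 29.1% of all genes, Mthfd1, of the folate cycle, by 1.73 (SE 0.10, adjusted p = 6.67e-22). Of these 6, 4 were higher in XY than in XX germ cells at 13.5 dpc, where 9.21% of all genes changed, among them Shmt2, of serine and folate metabolism (1.24, SE 0.19, adjusted p = 5.03e-06).

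In supporting cells Suv39h2, a histone methyltransferase gene of the silencing list, was higher in XY by 0.81 at 11.5 dpc (SE 0.24, adjusted p = 0.0442), by 1.72 at 12.5 dpc (SE 0.24, adjusted p = 1.5e-07) and by 1.41 at 13.5 dpc (SE 0.24, adjusted p = 1.03e-05). Tyms, the thymidylate synthase gene, was higher by 0.90 at 12.5 dpc (SE 0.22, adjusted p = 0.00193). Mtr, the methionine synthase gene, was lower in XY at all 3 stages, by -1.19 at 11.5 dpc (SE 0.26, adjusted p = 0.0021) and -1.54 at 13.5 dpc (SE 0.26, adjusted p = 8.61e-06).

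Germline genes known to be silenced by promoter methylation in somatic cells changed with stage in germ cells. Between 13.5 and 11.5 dpc 13 of 14 rose in XX germ cells and 11 of 14 in XY germ cells, with 0 lower in either, while 15.3% and 7.09% of all genes changed. Their median differences were 1.94 and 1.51, against -0.14 and -0.03 for all genes. Sycp1, of the synaptonemal complex, rose by 4.17 in XX (SE 0.24, adjusted p = 1.59e-18) and by 3.04 in XY (SE 0.24, adjusted p = 1.74e-13). The median of the list was 10.46 to 10.64 in XX germ cells at 13.5 dpc and 7.95 to 8.36 at 11.5 dpc, while it was 5.03 to 5.83 in all supporting cell arrays. Between the same stages Uhrf1 rose in germ cells of both karyotypes and Morc1 fell in XX germ cells, as given above. No other difference of a member, those of Dnmt1 and Dnmt3b included, passed the test in germ cells of either karyotype as deposited. Methylation itself was not measured here.

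The genes most like Morc1 over the 12 group means were Triml1 (Pearson r = 0.990), Fabp9 (r = 0.978) and Nanos3 (r = 0.977), the last an RNA-binding gene needed for germ cell survival. For Dnmt1 they were Syce2 (r = 0.995), Cenpn (r = 0.993) and Melk (r = 0.992), which lay in the same row set as Dnmt1 in 24, 27 and 25 of 35 arrays. With row sets aligned, Triml1 and Nanos3 stayed among those for Morc1. Those for Dnmt1 were then other genes, Brip1 (r = 0.997), Atad2 (r = 0.996) and Cenph (r = 0.996). The 12 group means share arrays and row sets. Among the 17 germ cell arrays the gene most like Dnmt1 was Usp14 (r = 0.952), which lay in the same row set as Dnmt1 in 16 of 17 arrays, so this likeness cannot be told apart from the shared row set. Dnmt1 and Uhrf1 themselves had r = 0.317 over the 12 group means and r = -0.209 over the 17 germ cell arrays.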

How the data were processed

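The authors deposited log2 expression values, made by RMA from Affymetrix Mouse Gene 1.0 ST arrays per the submitters' processing notes, with the RMA version, genome build and scan dates not given in the sources used here. Of 35557 probe sets, 21789 carried 1 gene symbol, 1621 several and 12147 none in the platform annotation. The probe set with the highest mean stood for each of 19938 genes, of which 999 had several.

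Group means of 35 arrays were fitted with limma 3.58.1 in R 4.3.3, with no block and 23 residual degrees of freedom, and tested in 20 comparisons with Benjamini-Hochberg adjustment over all genes of a comparison. Every adjusted p comes from this fit or, where stated, from an alternative limma fit listed below, and the number of arrays limits the precision. The fit was tested on simulated data with noise independent between genes and arrays, which does not cover the row sets described next.

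Row sets were found in each array from the spacing of the deposited decimals, since the values of a set are whole steps on 1 linear scale. There were 107 sets with relative steps of 1.0099 to 1.059, and 3 values lay in no set. Aligning them, which also centres the arrays, was an alternative, beside array centring, quantile normalisation, a filter on dim genes, the mean of all probe sets, limma with trend and robust settings, a fit on the arrays of 1 cell type, all 36 arrays, a replicate block and leaving out each array. What step made the sets was not tested.

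The members and lists were chosen with earlier results of these data known. From each other list the text names genes among the up to 2 largest positive and 2 largest negative differences that passed in a comparison, and as most like a member the 3 genes with the highest correlation. Promoter windows were read from RefSeq (GRCm38.p6). Replicates carry the labels' numbers.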

Additional observations from a re-analysis of the deposited data

Results flagged for a closer look

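The following values were singled out because an effect differed between groups by a test of that difference in limma. In germ cells the XY minus XX difference of Morc1 was larger at 13.5 than at 11.5 dpc by 2.67 (SE 0.32, adjusted p = 8.07e-08). At 13.5 dpc the XY minus XX difference in germ cells minus that in supporting cells was 2.90 for Morc1 (SE 0.32, adjusted p = 1.01e-09), -1.36 for Dnmt1 (SE 0.30, adjusted p = 0.000902), -1.26 for Uhrf1 (SE 0.31, adjusted p = 0.00251), 0.88 for Dnmt3a (SE 0.26, adjusted p = 0.0187) and 0.90 for Tet2 (SE 0.31, adjusted p = 0.0453). Morc1 lay so low in supporting cells that a difference there could hardly show. The lines and strains of the supporting cells differ between karyotypes at that stage, so karyotype and line cannot be told apart in the last 5 values. The values of Dnmt3a and Tet2 did not pass when the left-out array was included (adjusted p = 0.0862 and 0.0713). That array is not of 13.5 dpc, so both differences stayed the same and only the pooled error and the adjusted p moved.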

How the results depend on the processing

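Of the values of the 9 genes under settings other than leaving out single arrays, 1509 stayed on the same side of the threshold, 32 passed newly and 14 passed no longer, and with single arrays left out 1413 stayed, 6 passed newly and 57 passed no longer. No difference that passed in either fit changed sign. Dnmt3l had no value under the filter on dim genes. Leaving out 1 XX germ array of 12.5 dpc leaves a lone array, assumed to vary like the other groups.

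With row sets aligned, XY against XX gave 20 genes in germ cells at 11.5 dpc (5 as deposited), 3450 at 13.5 dpc (1837), and 1719 (662), 5536 (2665) and 5129 (2437) in supporting cells at the 3 stages. Between 13.5 and 11.5 dpc it gave 2807 in XY germ cells (1414), 2111 in XX supporting cells (817) and 4364 in XY supporting cells (1768). Between 12.5 and 11.5 dpc it gave 428 in XX (229) and 588 in XY germ cells (262), and between 13.5 and 12.5 dpc 1074 in XY germ cells (475). Germ against supporting cells in XY at 13.5 dpc gave 7653 (5005), the change of XY minus XX in germ cells 1527 (645), and the difference between cell types at 13.5 dpc 4666 (2234). The median residual SD was 0.137 aligned and 0.249 as deposited.

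With all 36 arrays, XY against XX gave 773 genes in germ cells at 12.5 dpc (358) and 392 in supporting cells at 11.5 dpc, 13.5 against 11.5 dpc gave 923 in XY germ cells, 12.5 against 11.5 dpc gave 356 in XX and 104 in XY germ cells, 13.5 against 12.5 dpc gave 199 in XY germ cells, and the change in germ cells gave 281. Germ cells at 12.5 dpc gave 767 with arrays centred and 752 with quantile normalisation, and at 11.5 dpc 14 in the fit on germ cells alone, which does not apply to the 5 comparisons of germ with supporting cells. The cause was not tested.

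With single arrays left out, XY against XX in germ cells gave 5 to 9, 92 to 316 and 1194 to 2759 genes at the 3 stages. Stage comparisons gave 935 to 1393 (13.5 against 11.5 dpc, XY germ), 1139 to 1673 (XY supporting), 53 to 231 and 146 to 268 (12.5 against 11.5 dpc, XX and XY germ), and 560 to 2862 and 240 to 524 (13.5 against 12.5 dpc, XX and XY germ). The change in germ cells gave 416 to 848.

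Of 187 pairs of arrays with the same number, 31 had correlated deviations over 0.1. The median correlation was -0.00616 for the same number and 0.00233 for other numbers, so no general pairing by number showed. Same-number correlations ran from -0.524 to 0.541, and pairing of some arrays is not excluded. With the replicate block, XY against XX gave 6, 339 and 1809 genes in germ cells and 653, 2671 and 2429 in supporting cells, and 0 of 180 calls of the 9 genes changed.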

Other observations

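The array labelled XX germ cells 12.5 dpc, replicate 3, entered no comparison. It had Tcf21 at 10.82 and Dcn at 10.11, both markers of interstitial or stromal cells, against at most 7.39 and 7.09 in the supporting cell arrays. Of the same markers, Nr2f2, Pdgfra and Postn (10.46, 10.59 and 9.38) also lay above those arrays, while Col1a1 (8.16) lay within the ranges of both cell types. The supporting cell markers Wt1 (11.18), Gata4 (9.79), Nr5a1 (8.84), Lhx9 (11.11), Kitl (11.17) and Nr0b1 (9.27) lay within the supporting cell ranges. Among the methylation genes the array had Dnmt1 at 11.38, Uhrf1 at 10.04, Dnmt3a at 10.11, Dnmt3b at 7.66 and Dnmt3l at 4.73. It had Tet1 at 10.35, Tet2 at 8.24, Tet3 at 7.83 and Morc1 at 5.38. Its Uhrf1, Dnmt3a, Tet1, Tet3 and Morc1 values lay outside the ranges of the other germ cell arrays.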
